A study of Mus musculus with 12 samples.

Results

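Adipose progenitor and preadipocyte markers were followed in cultures that had been driven to become adipocytes. The set held 10 genes, Pdgfra, Pdgfrb, Ly6a, Cd34, Dpp4, Pi16, Dlk1, Icam1, F3 and Thy1, chosen by their symbols among the 55573 genes of the count table, and all 10 were found there. Of these, 9 had enough reads to be tested and Dlk1 did not. The cells came from the stromal vascular fraction (SVF) of inguinal fat, the cells left once floating adipocytes are removed from digested tissue, and they were harvested on day 8 of differentiation as adipocytes. The donors were mice of C57BL/6 background that were homozygous for 1 of 3 forms of PPARγ. These were the wild type (WT), T166A (TA), whose alanine cannot be phosphorylated, and T166D (TD), whose aspartate mimics the phosphorylated threonine. Both changes were made in the germ line, so that every cell type of the culture carried them, and the age of the donors is not given in the sources used here. All cultures were induced for 4 days with 850 nM insulin, 1 nM triiodothyronine, 0.5 mM IBMX, 125 nM indomethacin and dexamethasone, followed by insulin and triiodothyronine alone.

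Fat tissue keeps a pool of mesenchymal progenitors among its blood vessels and connective tissue, and these cells give rise to new adipocytes. The platelet-derived growth factor receptors PDGFRα and PDGFRβ mark such cells, as do the surface antigens Sca-1 (Ly6a), CD34 and Thy-1. In mouse subcutaneous fat, single-cell work has described an interstitial population marked by Dpp4 and Pi16, a committed preadipocyte population marked by Icam1 and Dlk1, and a population marked by F3 (tissue factor, CD142) that restrains adipogenesis in its neighbours. PPARγ is the master regulator of adipocyte differentiation, and these markers usually decline as it drives cells toward lipid-filled adipocytes.

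Each genotype had 4 libraries. The libraries held between 16553324 and 20324286 counts, with all WT libraries deeper than those of TA and TD. Mitochondrial genes took 4.919 to 5.884% of the counts in WT, 2.737 to 4.498% in TA and 2.864 to 3.572% in TD. WT thus stood apart from both mutants in this share too, and its part in the differences below was not tested. Nothing in the labels says whether the libraries of a genotype came from separate mice or separate cultures, so the p-values measure the spread between these libraries, which may be technical. Levels are given as CPM, the counts of a gene scaled to the normalized size of its library, and as CPM per kilobase of exon where different genes are set side by side. Differences are log2 fold changes from edgeR's quasi-likelihood test with Benjamini-Hochberg adjustment over 15117 genes, and an adjusted p under 0.05 was taken as a change. The RNA is of whole cultures, so fewer or more cells of a type and less or more RNA per cell cannot be told apart.

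At day 8 the markers covered nearly the whole range of expression. Per kilobase and averaged over the 12 libraries, Ly6a stood at 391 CPM per kilobase, above 99.4% of the tested genes. It was followed by Pdgfra at 31.6, Pdgfrb at 26.3, F3 at 20.3, Thy1 at 18.2, Icam1 at 9.22 and Cd34 at 5.41 CPM per kilobase. The markers of the interstitial population were low, with Pi16 at 1.35 CPM per kilobase, above 28.4% of the tested genes, and Dpp4 at 0.391, above 11.6%. The adipocyte gene Fabp4, which encodes the lipid chaperone aP2, reached 1617 CPM per kilobase in the same libraries, so the cultures held abundant adipocyte RNA beside that of the markers. The order of neighbours changed with genotype. In WT, Pdgfrb (22.8 ± 1.41 CPM per kilobase, SD, n = 4) and F3 (20.9 ± 1.41) lay above Pdgfra (18.8 ± 1.14), whereas in TD Pdgfra (44.6 ± 6.71) lay above Pdgfrb (33.7 ± 5.76) and F3 (24.3 ± 2.91). In WT, Pdgfrb and F3 differed by less than the sum of their SDs, and so did F3 and Pdgfra. This order rests on the exon lengths used. In CPM, Pdgfra (188) lay above Pdgfrb (125) and F3 (52.9) in WT as well.

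In TD against WT, 5 of the 9 tested markers were higher and 0 were lower (0 also at an unadjusted p under 0.05 and with DESeq2), where 15.1% of all tested genes were higher and 14.2% were lower. The 5 were Pdgfra, Pdgfrb, Ly6a, Cd34 and Pi16, and for each of them all 4 TD libraries lay above all 4 WT libraries. Of all tested genes, 32.2% had no overlap between the WT and TD libraries. In TA against WT, 4 markers were higher (Pdgfra, Ly6a, Cd34 and Pi16) and 1 was lower (F3), against 6.72% higher and 4.41% lower among all tested genes. Those 4 higher markers also had no overlap between the libraries, which held for 13.6% of all tested genes. In TD against TA, 4 markers were higher (Pdgfra, Pdgfrb, Icam1 and F3) and 0 were lower (0 also at an unadjusted p under 0.05 and with DESeq2), against 7.33% and 9.37% of all tested genes. No overlap was seen for 3 of these, Pdgfrb, Icam1 and F3, and for 19.9% of all tested genes. Over the 9 tested markers the median log2 fold change was 0.56 for TD and 0.46 for TA relative to WT, and 0.19 for TD relative to TA. The corresponding medians over all tested genes were 0.011, -0.0056 and 0.023. The comparisons of TD and of TA with WT share their 4 WT libraries and are given side by side only. The shares called over all tested genes also serve as the reference for the counts given below for other gene lists.

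**Figure D1:**
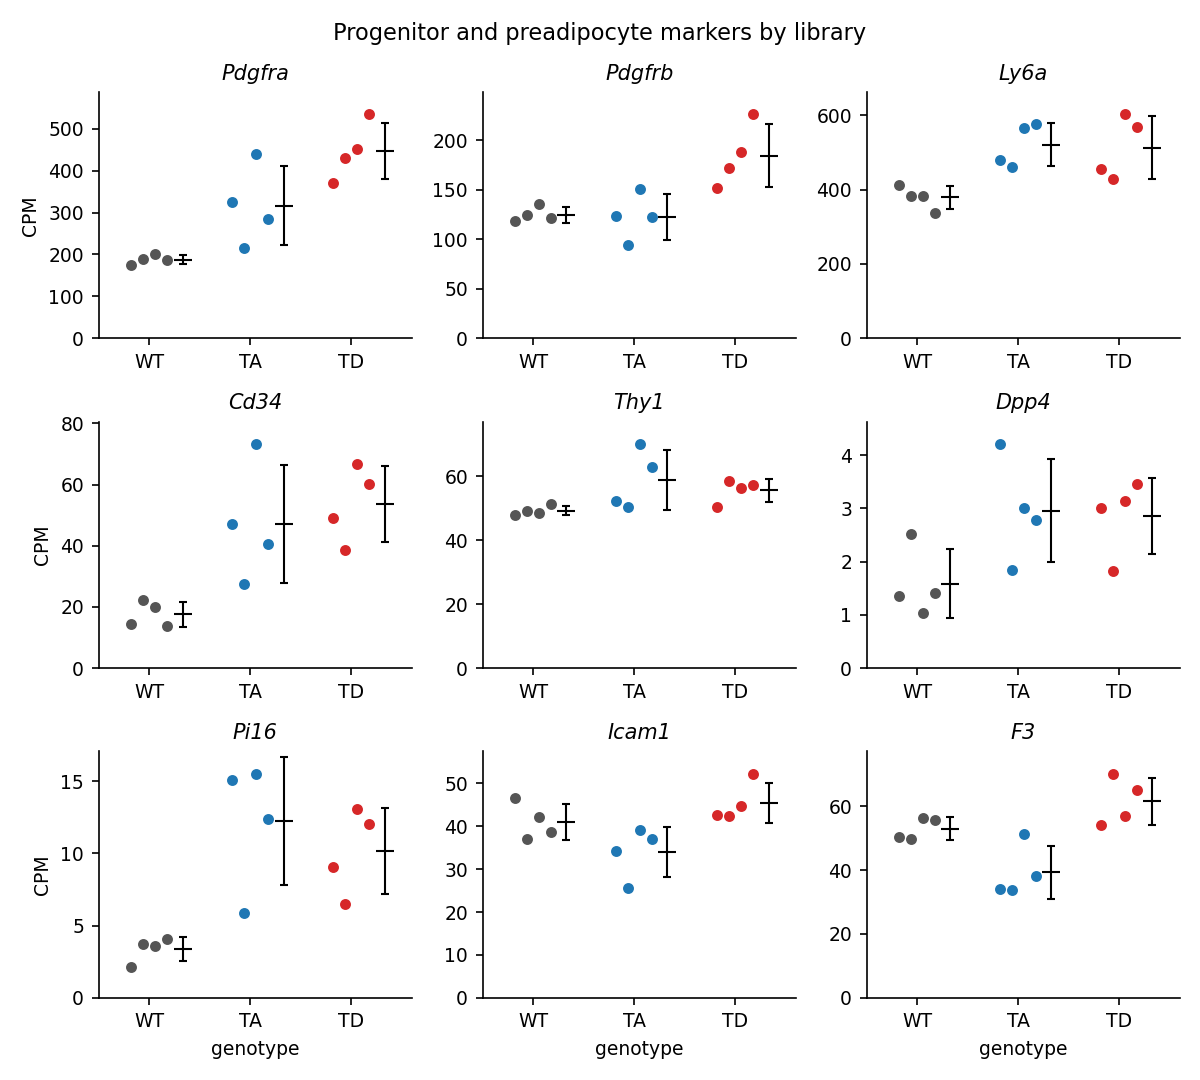
Each panel plots the level of 1 marker in CPM on an axis from 0, with 1 point per library of WT, TA and TD in order of replicate number and, to the right of the points, the mean with a bar of 1 SD (n = 4). Pdgfra, Ly6a, Cd34 and Pi16 lay above every WT library in all TA and TD libraries, Pdgfrb lay above WT in TD, and F3 and Icam1 were lower in TA than in TD.

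The PDGF receptors differed in where they were higher, Pdgfra in both mutants and Pdgfrb in TD. Pdgfra encodes the receptor tyrosine kinase that marks mesenchymal progenitors of fat. Its WT libraries read 174, 190, 202 and 186 CPM. The TA libraries read 326, 216, 439 and 285 CPM and the TD libraries 371, 430, 452 and 534 CPM. Every mutant library was above every WT library, the TA libraries spread the most, and TA replicate 3 fell within the TD range. Pdgfra rose 2.38-fold in TD against WT (log2 fold change 1.25, SE 0.16, 95% confidence interval 0.91 to 1.59, edgeR adjusted p = 0.000110). In TA against WT it rose by a log2 fold change of 0.75 (SE 0.16, interval 0.41 to 1.09, edgeR adjusted p = 0.00567). TD exceeded TA by 0.50 (interval 0.16 to 0.83, edgeR adjusted p = 0.0403), but that call was lost in the fit of the 8 TA and TD libraries alone (0.50, edgeR adjusted p = 0.0764) and when any 1 of TA replicates 1, 2 and 4 or TD replicates 2, 3 and 4 was left out (0.36 to 0.52, edgeR adjusted p from 0.0651 to 0.137).

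Pdgfrb encodes the related receptor that also marks mural cells, the pericytes and smooth muscle cells of vessel walls. It read 118, 124, 136 and 121 CPM in WT and 123, 94.6, 151 and 122 CPM in TA, so the WT range lay within that of TA. TD read 152, 172, 188 and 226 CPM, above every library of the other genotypes. Pdgfrb rose in TD against WT (log2 fold change 0.56, SE 0.13, interval 0.30 to 0.83, edgeR adjusted p = 0.00364) and was higher in TD than in TA (0.59, SE 0.13, interval 0.32 to 0.86, edgeR adjusted p = 0.00537). In TA against WT its log2 fold change was -0.025, with an interval of -0.29 to 0.24 (edgeR adjusted p = 0.934).

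The ratio of Pdgfra to Pdgfrb, each per kilobase, was 0.808, 0.836, 0.813 and 0.837 in the WT libraries (0.823 ± 0.0151, SD, n = 4). It was 1.45, 1.25, 1.58 and 1.28 in TA (1.39 ± 0.158) and 1.34, 1.37, 1.31 and 1.29 in TD (1.33 ± 0.0327). All 8 mutant libraries had more Pdgfra than Pdgfrb RNA per kilobase and all 4 WT libraries had less. Which side of 1 the ratio falls on rests on the exon lengths used, 10024 bases for Pdgfra and 5478 for Pdgfrb. In CPM without that division, Pdgfra lay above Pdgfrb in every WT library too. An exact permutation test, two-sided, gave p = 0.0286 for TD against WT and for TA against WT, the smallest p it allows, and 0.0514 after adjustment over the 9 ratio tests made, which does not pass the threshold. The ratio was chosen after the values were seen. TD and TA overlapped (exact permutation p = 0.543, adjusted p = 0.543). Because both genes are read in the same library, this ratio does not depend on the scaling between libraries. Within genotypes, the log2 levels of both receptors varied together (Pearson r = 0.95 over 12 libraries after removal of the genotype means, a description of libraries that share depth and composition).

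**Figure D2:**
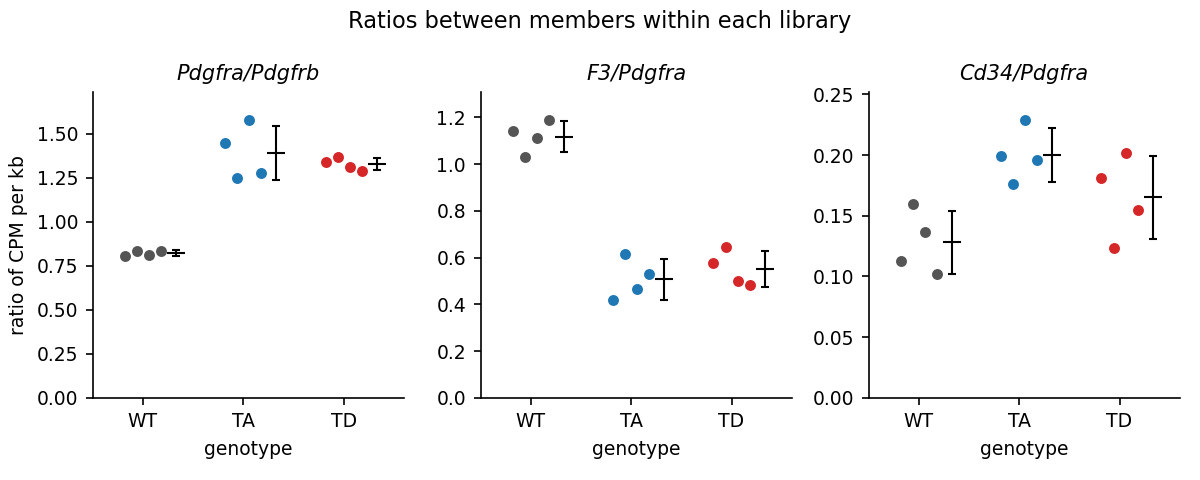
The 3 panels plot, on axes from 0, the ratio of CPM per kilobase of Pdgfra to Pdgfrb, of F3 to Pdgfra and of Cd34 to Pdgfra, with 1 point per library and the mean with a bar of 1 SD (n = 4). The 4 WT libraries sit between 0.808 and 0.837 for Pdgfra to Pdgfrb, below all 8 mutant libraries, and between 1.03 and 1.19 for F3 to Pdgfra, above all of them.

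The ligands and signaling partners of these receptors moved in mixed directions. Of 10 genes on that list, 2 were higher and 3 lower in TD against WT, with a median of -0.081. Of all tested genes, 15.1% were higher and 14.2% lower in that comparison. Pdgfb, the ligand that binds both receptors and is made by endothelium, had the largest rise (3.32 ± 0.846 CPM in WT, 3.97 ± 1.53 in TA and 8.28 ± 0.703 in TD, log2 fold change 1.31 in TD against WT, edgeR adjusted p = 0.000627). It was also higher in TD than in TA (1.05, edgeR adjusted p = 0.00519). Pdgfa, a ligand of PDGFRα, had the largest fall in TD against WT (8.73 ± 1.07 to 5.79 ± 0.183 CPM, log2 fold change -0.59, edgeR adjusted p = 0.0201). Pdgfc, a further ligand of PDGFRα, was lower in TA than in WT (log2 fold change -0.52, edgeR adjusted p = 0.0309), the only gene of the list called in that comparison, and the call was lost without any 1 of WT replicates 1, 2 and 4. The most abundant gene of the list per kilobase was Pik3r1, the regulatory subunit of phosphoinositide 3-kinase, at 50.7 CPM per kilobase. The count of 3 falls in TD became 1 without WT replicate 1, WT replicate 4 or TD replicate 2, and 0 without TD replicate 3.

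Of the surface antigens, Ly6a and Cd34 were higher in both mutants and Thy1 was not called in any comparison. Ly6a encodes Sca-1, a small membrane-anchored antigen used to sort mouse progenitors, and it belongs to a family of close paralogs between which reads may have been split. The WT libraries read 411, 384, 383 and 338 CPM, the TA libraries 480, 461, 566 and 576 CPM and the TD libraries 454, 429, 602 and 567 CPM. Both mutants lay wholly above WT and overlapped each other. Ly6a rose by a log2 fold change of 0.44 in TD (SE 0.11, interval 0.20 to 0.67, edgeR adjusted p = 0.00822) and 0.46 in TA (SE 0.11, interval 0.22 to 0.70, edgeR adjusted p = 0.0137) against WT. TD against TA gave -0.023 (interval -0.26 to 0.21, edgeR adjusted p = 0.913).

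Cd34 encodes a sialomucin carried by adipose progenitors and also by endothelium. It read 14.3, 22.1, 20.1 and 13.8 CPM in WT. It read 47.0, 27.6, 73.2 and 40.7 CPM in TA and 49.0, 38.6, 66.6 and 60.3 CPM in TD. Each mutant library was above each WT library, and the 8 mutant libraries were interleaved. It rose by 1.61 on the log2 scale in TD against WT (3.04-fold, SE 0.25, interval 1.09 to 2.12, edgeR adjusted p = 0.000271) and 1.42 in TA against WT (SE 0.25, interval 0.90 to 1.94, edgeR adjusted p = 0.00125). TD against TA gave 0.19, with an interval of -0.31 to 0.68 (edgeR adjusted p = 0.633). An antisense gene, Gm16897, overlaps Cd34 and had a mean of 9.3 counts, against 252 or more counts of Cd34 in every library.

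Endothelial markers also differed between the genotypes, and the part of endothelial cells in the level of Cd34 was not tested. The summed level of the 11 endothelial markers was 42.0 to 75.2 CPM in WT, 77.2 to 131 CPM in TA and 141 to 174 CPM in TD. Of these 11 genes, 10 were higher in TD and 6 in TA against WT, with medians of 1.35 and 0.80. Cdh5, the endothelial cadherin and the most abundant of them per kilobase, read 11.2 ± 3.99 CPM in WT, 19.9 ± 3.57 in TA and 34.2 ± 4.21 in TD. It rose in TD against TA (log2 fold change 0.78, edgeR adjusted p = 0.0114), where Cd34 gave 0.19. In that comparison 3 of the 11 endothelial genes were higher, with a median of 0.55 and values from -0.49 (Sox18) to 1.04 (Kdr). Sox18, a transcription factor of endothelium, had the largest rise of the list in both mutants (2.19 in TD and 2.68 in TA against WT, edgeR adjusted p = 6.84e-05 and 3.54e-06), and Kdr, a receptor for VEGF, had the largest in TD against TA (1.04, edgeR adjusted p = 0.00347). Over the 12 libraries the log2 level of Cd34 correlated with that of Cdh5 at r = 0.87 and with that of Pdgfra at r = 0.93. Within genotypes the values were 0.62 and 0.83. Likeness to Cdh5 was not particular to Cd34, since Pdgfra correlated with Cdh5 at r = 0.91 over the 12 libraries and 0.49 within genotypes.

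The ratio of Cd34 to Pdgfra per kilobase was 0.113, 0.160, 0.137 and 0.102 in WT. It was 0.199, 0.176, 0.229 and 0.196 in TA, above every WT library (exact permutation p = 0.0286, adjusted p = 0.0514), and 0.181, 0.123, 0.202 and 0.155 in TD, which overlapped both WT (exact permutation p = 0.143, adjusted p = 0.214) and TA (exact permutation p = 0.200, adjusted p = 0.257).

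Thy1 encodes a membrane-anchored glycoprotein of mesenchymal cells and neurons. It varied little in WT, with 47.9, 49.0, 48.5 and 51.2 CPM. It read 52.2, 50.3, 70.0 and 62.7 CPM in TA and 50.4, 58.4, 56.3 and 57.3 CPM in TD, so that each mutant overlapped WT in 1 library. TD differed from WT by 0.18 on the log2 scale (interval -0.022 to 0.38, edgeR adjusted p = 0.172), TA from WT by 0.26 (interval 0.060 to 0.46, edgeR adjusted p = 0.0887) and TD from TA by -0.082 (interval -0.28 to 0.12, edgeR adjusted p = 0.593). The difference of TA from WT passed the threshold without TA replicate 2 (0.32, edgeR adjusted p = 0.0309).

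Other antigens used to sort stromal cells shared part of this pattern. Of 9, 4 were higher in TD and 2 in TA against WT, beside 15.1% and 6.72% of all tested genes. Eng, encoding the TGFβ co-receptor endoglin found on mesenchymal and endothelial cells, had the largest rise in TD (13.8 ± 2.52 CPM in WT, 22.1 ± 3.83 in TA and 31.4 ± 3.54 in TD, log2 fold change 1.19, edgeR adjusted p = 8.02e-05). Vcam1, an adhesion molecule that binds leukocyte integrins, had the largest rise in TA (29.8 ± 1.71, 48.8 ± 8.93 and 54.1 ± 3.59 CPM in WT, TA and TD, log2 fold change 0.71 in TA against WT, edgeR adjusted p = 0.000358). Cd9, a tetraspanin, led the 2 rises in TD against TA (0.65, edgeR adjusted p = 0.0266), of which 0 were left without TA replicate 2, TA replicate 4, TD replicate 2 or TD replicate 4. Itgb1, the most abundant of the list at 115 CPM per kilobase, gave 0.16 in TD against WT (edgeR adjusted p = 0.109).

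The markers of the interstitial population differed in how firmly they could be measured. Pi16 encodes a secreted protein of the CAP family that marks fibroblast progenitors of the interstitium. It read 2.13, 3.72, 3.62 and 4.06 CPM in WT, 15.1, 5.90, 15.5 and 12.4 CPM in TA, and 9.08, 6.52, 13.1 and 12 CPM in TD. No mutant library fell within the WT range, and TA replicate 2 was the lowest of the mutants. Pi16 rose 3.61-fold in TA against WT (log2 fold change 1.85, SE 0.29, interval 1.24 to 2.46, edgeR adjusted p = 0.000502) and 3.01-fold in TD (1.59, SE 0.29, interval 0.98 to 2.20, edgeR adjusted p = 0.000846). TD against TA gave -0.26, with an interval of -0.83 to 0.30 (edgeR adjusted p = 0.539).

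Dpp4 encodes a membrane-bound peptidase that defines the same population. Between 21 and 72 reads were counted per library, so its counting error is the largest of the tested markers. The WT libraries read 1.35, 2.53, 1.04 and 1.42 CPM, the TA libraries 4.21, 1.84, 3.01 and 2.78 CPM and the TD libraries 3.01, 1.83, 3.14 and 3.46 CPM. WT replicate 2 lay above the lowest library of each mutant. TD differed from WT by 0.84 on the log2 scale (interval 0.19 to 1.5, edgeR adjusted p = 0.0510) and TA from WT by 0.90 (interval 0.24 to 1.55, edgeR adjusted p = 0.0755), and neither passed the threshold. Without WT replicate 2 the values were 1.16 (edgeR adjusted p = 0.0117) and 1.22 (edgeR adjusted p = 0.0207), and TA differed from WT by 1.06 without TA replicate 2 (edgeR adjusted p = 0.0322). TD against TA gave -0.053, with an interval of -0.68 to 0.58 (edgeR adjusted p = 0.925).

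A list of 10 further genes of the interstitial population held 7 that could be tested. Of these, 4 were higher in TD and 4 in TA against WT, with medians of 0.64 and 0.50. Cd248, which encodes the stromal glycoprotein endosialin, rose in TD against WT (134 ± 12.6, 201 ± 42.0 and 271 ± 41.8 CPM in WT, TA and TD, log2 fold change 1.02, edgeR adjusted p = 0.000136) and was higher in TD than in TA (0.43, edgeR adjusted p = 0.0383, lost without any 1 of TA replicates 1, 2 and 4 or TD replicates 3 and 4). Efhd1, a calcium-binding protein of mitochondria, had the largest rise in TA (1.06, edgeR adjusted p = 0.0178). Sema3c, a secreted guidance cue, was higher in TA than in TD (32.4 ± 4.37, 66.2 ± 8.30 and 50.4 ± 7.40 CPM in WT, TA and TD, log2 fold change of TD against TA -0.39, edgeR adjusted p = 0.0299, lost without TA replicate 1, TD replicate 1 or TD replicate 2). The most abundant was Ly6c1, a paralog of Ly6a, at 143 CPM per kilobase.

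Icam1 and F3, like Pdgfrb, had their lowest mean levels in TA and were higher in TD than in TA. Icam1 encodes an adhesion molecule for leukocyte integrins that marks committed preadipocytes and is also carried by endothelium. It read 46.5, 37.0, 42.1 and 38.7 CPM in WT, 34.3, 25.7, 39 and 37.0 CPM in TA and 42.6, 42.4, 44.6 and 52.2 CPM in TD. All TD libraries lay above all TA libraries, and WT overlapped both. Icam1 was higher in TD than in TA by a log2 fold change of 0.42 (SE 0.12, interval 0.17 to 0.66, edgeR adjusted p = 0.0218), and the call was lost without TA replicate 2 (0.31, edgeR adjusted p = 0.0639) or TD replicate 4 (0.35, edgeR adjusted p = 0.0839). Against WT it gave 0.15 in TD (interval -0.099 to 0.39, edgeR adjusted p = 0.372) and -0.27 in TA (interval -0.52 to -0.027, edgeR adjusted p = 0.150).

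F3 encodes tissue factor, the membrane receptor of coagulation factor VII. It read 50.2, 49.6, 56.4 and 55.6 CPM in WT and 34.2, 33.6, 51.3 and 38.0 CPM in TA, where 3 of 4 libraries lay below all WT libraries. It read 54.2, 70.1, 56.8 and 65.0 CPM in TD, above every TA library. F3 was 1.57-fold higher in TD than in TA (log2 fold change 0.65, SE 0.12, interval 0.39 to 0.90, edgeR adjusted p = 0.00200). In TA against WT it was lower by a log2 fold change of -0.43 (SE 0.12, interval -0.69 to -0.17, edgeR adjusted p = 0.0299), a call lost without any 1 of WT replicates 1, 3 and 4 or TA replicates 1, 2 and 4 (-0.46 to -0.36, edgeR adjusted p from 0.0514 to 0.0977). In TD against WT it gave 0.22 (interval -0.035 to 0.47, edgeR adjusted p = 0.187).

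The ratio of F3 to Pdgfra in the same library moves with the rise of Pdgfra given above. Per kilobase it was 1.14, 1.03, 1.11 and 1.19 in WT (1.12 ± 0.0645, SD, n = 4). It was 0.417, 0.617, 0.464 and 0.528 in TA (0.506 ± 0.0868) and 0.579, 0.646, 0.498 and 0.483 in TD (0.551 ± 0.0758). Neither mutant overlapped WT, but the difference did not pass the threshold after adjustment (exact permutation p = 0.0286, adjusted p = 0.0514) and the mutants overlapped (exact permutation p = 0.457, adjusted p = 0.514).

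**Figure D3:**
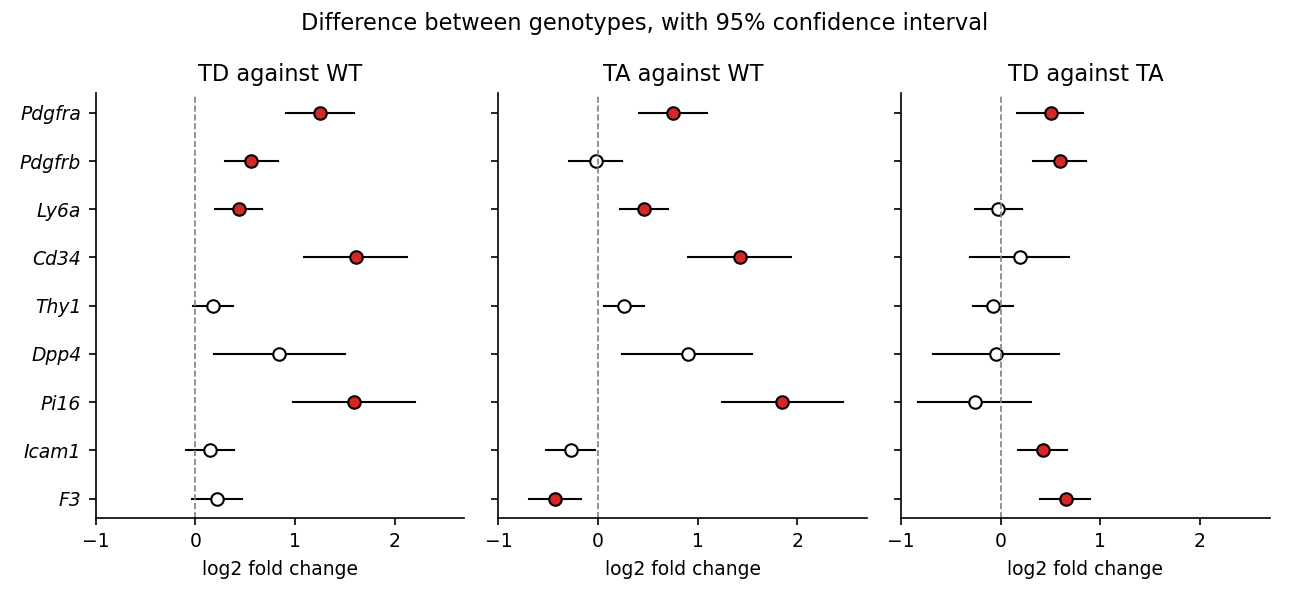
Points are log2 fold changes of the 9 tested markers for the 3 comparisons, lines are 95% confidence intervals, and red points passed an adjusted p of 0.05. Cd34 and Pi16 lie farthest to the right in both comparisons with WT, and Pdgfrb, Icam1 and F3 lie at or left of 0 in TA against WT and right of 0 in TD against TA.

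The upstream sequences of the members were read from RefSeq, on GRCm38.p6, as the 250 bases before each gene's start. The table held 7 of the 10 members and did not hold Pdgfrb, Ly6a and Thy1. F3 and Icam1, which like Pdgfrb were higher in TD than in TA, are shown with Pdgfra and Pi16, which were higher in both mutants than in WT. Pdgfra was also called higher in TD than in TA (log2 fold change 0.50, edgeR adjusted p = 0.0403), so the pairs are not separate classes in that comparison. The F3 window is chr3:121723287-121723536 and the Icam1 window chr9:21015690-21015939. The Pdgfra window is chr5:75152001-75152250. The Pi16 window is chr17:29318632-29318881, which lies within the Pi16 gene as GENCODE draws it, and all 4 are on the plus strand. Capitals mark matches to AP-1 (TGANTCA), to the kappaB core (GGANNTTCC), to the STAT site (TTCNNNGAA), to the C/EBP core (TTNCNNAA) and to the glucocorticoid element core (TGTTCT), on either strand.
F3: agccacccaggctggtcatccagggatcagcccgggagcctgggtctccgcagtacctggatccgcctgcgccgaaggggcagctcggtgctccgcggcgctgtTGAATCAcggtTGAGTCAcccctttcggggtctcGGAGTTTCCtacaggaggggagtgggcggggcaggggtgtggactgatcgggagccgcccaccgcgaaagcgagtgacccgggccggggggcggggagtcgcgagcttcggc
Icam1: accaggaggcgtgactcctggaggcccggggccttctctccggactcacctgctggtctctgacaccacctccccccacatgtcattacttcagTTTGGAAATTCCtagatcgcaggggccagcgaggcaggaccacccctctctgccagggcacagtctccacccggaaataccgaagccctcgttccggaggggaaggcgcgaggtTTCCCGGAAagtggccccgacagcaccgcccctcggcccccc
Pdgfra: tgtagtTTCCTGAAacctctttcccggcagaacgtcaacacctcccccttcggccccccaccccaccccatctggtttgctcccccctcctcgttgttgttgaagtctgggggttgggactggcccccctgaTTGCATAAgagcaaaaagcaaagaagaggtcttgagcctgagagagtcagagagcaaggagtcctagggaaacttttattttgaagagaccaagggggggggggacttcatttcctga
Pi16: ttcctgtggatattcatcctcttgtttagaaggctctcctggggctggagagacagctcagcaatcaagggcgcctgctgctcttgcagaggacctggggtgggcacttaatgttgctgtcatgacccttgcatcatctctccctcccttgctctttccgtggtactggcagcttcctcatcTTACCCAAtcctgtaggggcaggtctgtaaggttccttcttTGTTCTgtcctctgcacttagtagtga

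Of the members in the table, F3 and Icam1 alone held the kappaB core, which was found in 3.59% of all 32851 windows. In F3 the matched bases were GGAGTTTCC, and in Icam1 they were GGAAATTCC, the latter overlapping a C/EBP match. F3 also held 2 AP-1 matches (6.75% of windows), TGAATCA from 146 to 140 bases and TGAGTCA from 135 to 129 bases before the start, and Icam1 a STAT match (7.02% of windows) from 42 to 34 bases before it. C/EBP matches were found in Pdgfra (2), Pi16, Dlk1 and Icam1, and in 36.8% of windows. The glucocorticoid element core was found in Pi16 and Dpp4, and in 16.1% of windows. The nuclear receptor core AGGTCA (14.0% of windows) and its direct repeat with 1 base between, the element that PPARγ binds with RXR (0.0335% of windows), were found in none of the 7 windows. Cd34 held none of the 11 motifs searched. The other motifs were the E-box CANNTG (66.2% of windows, in Pdgfra, Dpp4 and Icam1) and, in Dpp4 alone, the interferon-stimulated element GAAANNGAA (7.13%), the TEAD site GGAATG (12.6%) and the TATA box TATAAA (12.4%). The windows of F3 and Icam1 had a GC content of 70.0% and 65.2%, that of Pdgfra 54.4% and that of Pi16 52.4%, equal to the median of all windows. These matches are letters in a window and were not measured as binding sites.

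A list of genes linked to F3, Icam1, Dlk1 and Dpp4 by known interactions was read beside them. Of 11 that could be tested, 6 were higher in TD than in TA, with a median of 0.39, and the count fell to 2 without TA replicate 2, TD replicate 3 or TD replicate 4 and to 3 without TA replicate 1, TA replicate 4 or TD replicate 2. Itgb2, the leukocyte integrin chain that binds ICAM-1, had the largest rise in TD against TA (20.1 ± 10.6, 9.02 ± 4.50 and 22.9 ± 4.02 CPM in WT, TA and TD, log2 fold change 1.33, edgeR adjusted p = 0.0154). It is a gene of myeloid cells, whose summed list of 13 markers ran from 295 to 880 CPM in WT, 147 to 641 in TA and 679 to 938 in TD, and the part of those cells was not tested. F7, which encodes the coagulation factor that tissue factor binds, read 4.56 ± 0.844, 3.17 ± 0.743 and 5.69 ± 0.985 CPM in WT, TA and TD, with a log2 fold change of 0.84 in TD against TA (edgeR adjusted p = 0.0121). F10, the factor that this complex activates, had the largest fall in TA against WT (1.79 ± 0.909 to 0.356 ± 0.234 CPM, log2 fold change -2.30, edgeR adjusted p = 0.00823). Tfpi2, a protease inhibitor related to the inhibitor of tissue factor, had the largest rise in TD against WT (1.04, edgeR adjusted p = 0.00565). Against WT, 2 genes of the list were higher in TD and 2 were lower in TA (1 without any 1 of WT replicates 2 and 3, TA replicate 1 or TD replicates 2 and 3). Cav1, the caveolin that binds DPP4, was the most abundant at 631 CPM per kilobase, with log2 fold changes of -0.27 in TD (edgeR adjusted p = 0.0554) and -0.27 in TA (edgeR adjusted p = 0.0923) against WT.

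Other markers of the F3 population did not follow F3 as a group. Of 8, 5 were higher in TD against WT (3 without WT replicate 3 or TD replicate 4), and 3 were higher and 1 lower in TA against WT, with medians of 0.49 and 0.46. Fmo2, a flavin monooxygenase, followed F3 in falling in TA (285 ± 54.8 CPM in WT, 196 ± 22.7 in TA and 292 ± 23.8 in TD, log2 fold change of TA against WT -0.54, edgeR adjusted p = 0.00665). It was also higher in TD than in TA (0.57, edgeR adjusted p = 0.00370). Abcg1, a cholesterol exporter, went the other way, with 57.2 ± 4.30, 124 ± 17.6 and 56.1 ± 4.13 CPM in WT, TA and TD (log2 fold change 1.11 in TA against WT, edgeR adjusted p = 1.61e-06, and -1.14 in TD against TA, edgeR adjusted p = 1.44e-06). Meox2, a homeobox factor, had the largest rise in TD against WT (1.15, edgeR adjusted p = 0.00376). Igfbp3, a secreted binding protein of insulin-like growth factors and the most abundant of the list, rose in both mutants (217 ± 39.9, 319 ± 58.7 and 370 ± 25.4 CPM, 0.77 in TD, edgeR adjusted p = 0.000543, and 0.56 in TA, edgeR adjusted p = 0.0104).

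Dlk1, which encodes preadipocyte factor 1, was not detected. Its count was 0 in 11 of 12 libraries and 1 in TA replicate 1, which stood at 0.0585 CPM. A count of 0 allows up to 3 counts, or 0.149 to 0.184 CPM in these libraries, and covers counting error only. Of the committed preadipocyte markers, Icam1 was therefore measured at 418 to 897 reads per library and Dlk1 was not.

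Of 7 tested genes that restrain adipogenesis, 5 were higher in TD against WT (median 0.57) and 1 in TA against WT (median 0.30; 0 without WT replicate 1 or TA replicate 1, and 2 without TA replicate 3 or TA replicate 4). Sox9, a transcription factor of progenitors, had the largest rise in TD (4.09 ± 1.08 CPM in WT, 5.36 ± 0.948 in TA and 6.96 ± 0.797 in TD, log2 fold change 0.76, edgeR adjusted p = 0.00758). Zfp521, a zinc finger protein that opposes commitment to the fat lineage, was the gene called in TA (17.9 ± 4.04, 26.3 ± 2.83 and 28.9 ± 3.46 CPM in WT, TA and TD, 0.55 in TA against WT, edgeR adjusted p = 0.0186). Klf3 was the most abundant, at 6.69 CPM per kilobase. In TD against TA the median of the list was 0.15, and the edgeR adjusted p of its 7 genes ran from 0.141 for Gata2 to 0.867 for Klf2.

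Genes of preadipocyte commitment had medians of 0.020 in TD and 0.025 in TA against WT. Of 9 tested, 2 were higher in TD and 2 were lower in TA, beside 15.1% and 4.41% of all tested genes. Cebpd, an early factor of the adipogenic cascade, had the largest rise in TD (123 ± 13.4 to 158 ± 14.1 CPM, log2 fold change 0.36, edgeR adjusted p = 0.00537), and the count of 2 became 1 without any 1 of WT replicates 1, 2 and 4, TA replicate 4 or TD replicates 2 and 3. In TA, Pdgfc, described above, and Ebf2, a factor of preadipocytes and brown fat, were the genes called (Ebf2 63.8 ± 2.80, 50.0 ± 4.64 and 64.7 ± 5.03 CPM in WT, TA and TD, -0.35 in TA against WT, edgeR adjusted p = 0.00860), and the count of 2 became 1 without WT replicate 1, 2 or 4 or TA replicate 4. In TD against TA, Klf4 had the largest rise (63.0 ± 10.7 in TA and 94.8 ± 9.32 CPM in TD, 0.59, edgeR adjusted p = 0.00172). Zfp423, a zinc finger protein that marks committed preadipocytes, was lower in TD than in TA (-0.29, edgeR adjusted p = 0.0202), a call lost without TA replicate 1, TA replicate 2, TD replicate 1 or TD replicate 2. Cebpb was the most abundant of the list, at 64.1 CPM per kilobase.

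Fibroblast and adipocyte genes also differed between the genotypes, and the part of either in the members' levels was not tested. Of 11 fibroblast markers, 10 were higher in TD against WT (median 0.77) and 4 in TA (median 0.30, 2 without WT replicate 1 or TA replicate 3). Lum, the matrix proteoglycan lumican, had the largest rise in both (64.1 ± 7.93, 144 ± 37.8 and 155 ± 25.6 CPM in WT, TA and TD, 1.27 in TD, edgeR adjusted p = 0.000119, and 1.16 in TA, edgeR adjusted p = 0.000226). Col1a1, the collagen chain, led the 6 rises in TD against TA (0.61, edgeR adjusted p = 0.0183), a count that fell to 1 without TD replicate 3 or TD replicate 4, to 2 without TA replicate 2 and to 3 without TA replicate 1 or TD replicate 2. Col3a1 was the most abundant at 1064 CPM per kilobase. Over the 12 libraries the log2 level of Pdgfrb correlated with that of Col1a1 at r = 0.97 (0.94 within genotypes), that of Pdgfra at r = 0.87 (0.92) and that of Cd34 at r = 0.74 (0.87).

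Of 18 mature adipocyte genes, 14 were lower and 1 was higher in TD against WT (median -0.42), and 2 were lower and 2 higher in TA (median 0.021). Cidec, a lipid droplet protein, had the largest fall in TD (747 ± 100 CPM in WT, 1058 ± 256 in TA and 382 ± 27.1 in TD, -0.97 against WT, edgeR adjusted p = 0.000233, and -1.47 against TA, edgeR adjusted p = 9.09e-06) and the largest rise in TA (0.50, edgeR adjusted p = 0.0320). The count of 2 rises in TA was 0 or 1 without WT replicates 1, 2 or 3 or TA replicates 1, 2 or 4. Lep, the adipokine leptin, had the largest fall in TA (127 ± 10.2 to 63.8 ± 11.2 CPM, -0.99, edgeR adjusted p = 6.37e-05), and Car3, a carbonic anhydrase, was the gene that rose in TD (4014 ± 90.7, 2186 ± 297 and 5297 ± 465 CPM in WT, TA and TD, 0.40 against WT, edgeR adjusted p = 0.00840, and 1.28 against TA, edgeR adjusted p = 1.27e-06). The log2 level of Adipoq, which encodes adiponectin, correlated with that of Pdgfra at r = -0.61 (-0.68 within genotypes), with that of Pdgfrb at r = -0.88 (-0.68) and with that of F3 at r = -0.76 (-0.33). For the other tested markers the values were -0.68 for Icam1 (-0.27), -0.45 for Cd34 (-0.86) and -0.26 for Dpp4 (-0.46). They were -0.24 for Ly6a (-0.49), -0.19 for Pi16 (-0.52) and -0.06 for Thy1 (-0.29).

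Markers of other cells of the SVF also differed between genotypes. Of 10 mural markers, 7 were higher and 1 lower in TD and 6 were higher in TA against WT (medians 0.73 and 0.71), with summed levels of 220 to 230 CPM in WT, 260 to 325 in TA and 269 to 303 in TD. Rgs5, a signaling regulator of pericytes, had the largest rise in TA (2.87 ± 0.992, 15.2 ± 6.79 and 15.9 ± 1.51 CPM in WT, TA and TD, 2.40, edgeR adjusted p = 4.89e-05) and Kcnj8, a potassium channel of pericytes, in TD (2.55, edgeR adjusted p = 8.93e-05). Cspg4, which encodes the pericyte proteoglycan NG2, fell in TD (27.0 ± 1.97, 46.4 ± 7.63 and 19.2 ± 0.877 CPM, -0.49 against WT, edgeR adjusted p = 0.00342, and -1.27 against TA, edgeR adjusted p = 1.81e-06). Mcam, an adhesion molecule of mural cells and endothelium, was the most abundant per kilobase at 29.4. The log2 level of Rgs5 correlated with that of Pdgfrb at r = 0.52 over the 12 libraries (0.69 within genotypes) and with that of Cd34 at r = 0.95 (0.75). The part of mural cells in the members' levels was not tested.

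Skeletal muscle markers were near 0 in WT, with a summed level of 12 genes of 6.05 to 13.7 CPM, and reached 17.5 to 75.0 CPM in TA and 18.4 to 297 CPM in TD. All 9 that could be tested were higher in TD and 5 in TA against WT (1 to 3 without any 1 of the 4 WT libraries or TA replicates 2 and 3). Myog, a muscle transcription factor, stood at 0 in each WT library and at 1.88 ± 1.32 CPM in TD, and Pax7, the marker of muscle stem cells, had no read in any library. Myog, Ckm, Actn2 and Myh3 passed the filter on low counts through mutant libraries alone (WT means 0, 0.0649, 0.0658 and 0.119 CPM). For these genes, being tested already required a level in the mutants, so the counts of rises against WT are partly set by the filter. Acta1, skeletal actin, was the most abundant at 6.80 CPM per kilobase. Ttn, the giant protein titin, had the largest rise in TD against TA (2.15, edgeR adjusted p = 0.0143), where 4 muscle genes were higher (0 without TD replicate 3, 1 without TA replicate 1, TA replicate 4 or TD replicate 4, and 8 without TD replicate 1). TA replicate 2, with the highest muscle sum of its genotype at 75.0 CPM, had the lowest Pdgfra, Cd34 and Pi16 of the mutants. TD replicates 3 and 4, with the highest muscle sums at 297 and 165 CPM, had the highest Pdgfra, Cd34 and Pi16 of TD, and TD replicate 1, with the lowest sum of TD at 18.4 CPM, had its lowest Pdgfra. The lowest Cd34 (38.6 CPM) and Pi16 (6.52 CPM) of TD were those of TD replicate 2, with a muscle sum of 73.8 CPM. The part of muscle cells in the members' levels was not tested. Of 12 interferon-induced genes, 2 were higher in TD and 4 in TA against WT, led in both by Oas1a (0.96, edgeR adjusted p = 0.0197, and 1.13, edgeR adjusted p = 0.0175). Among all tested genes, 15.1% were higher in TD and 6.72% in TA. Bst2, which encodes tetherin, was the most abundant at 129 CPM per kilobase. The 2 in TD were 0 without TD replicate 3 or 4, and 1 without WT replicate 1 or 3, and the 4 in TA were 0 without WT replicate 3 and 2 without WT replicate 2 or TA replicate 4. Sca-1 is itself inducible by interferon, and the log2 level of Ly6a correlated with that of Ifit1 at r = 0.38 over the 12 libraries and 0.08 within genotypes. Ifit1 is a single gene of that list and was not called in any comparison, and the part of interferon in the level of Ly6a was not tested.

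**Figure D4:**
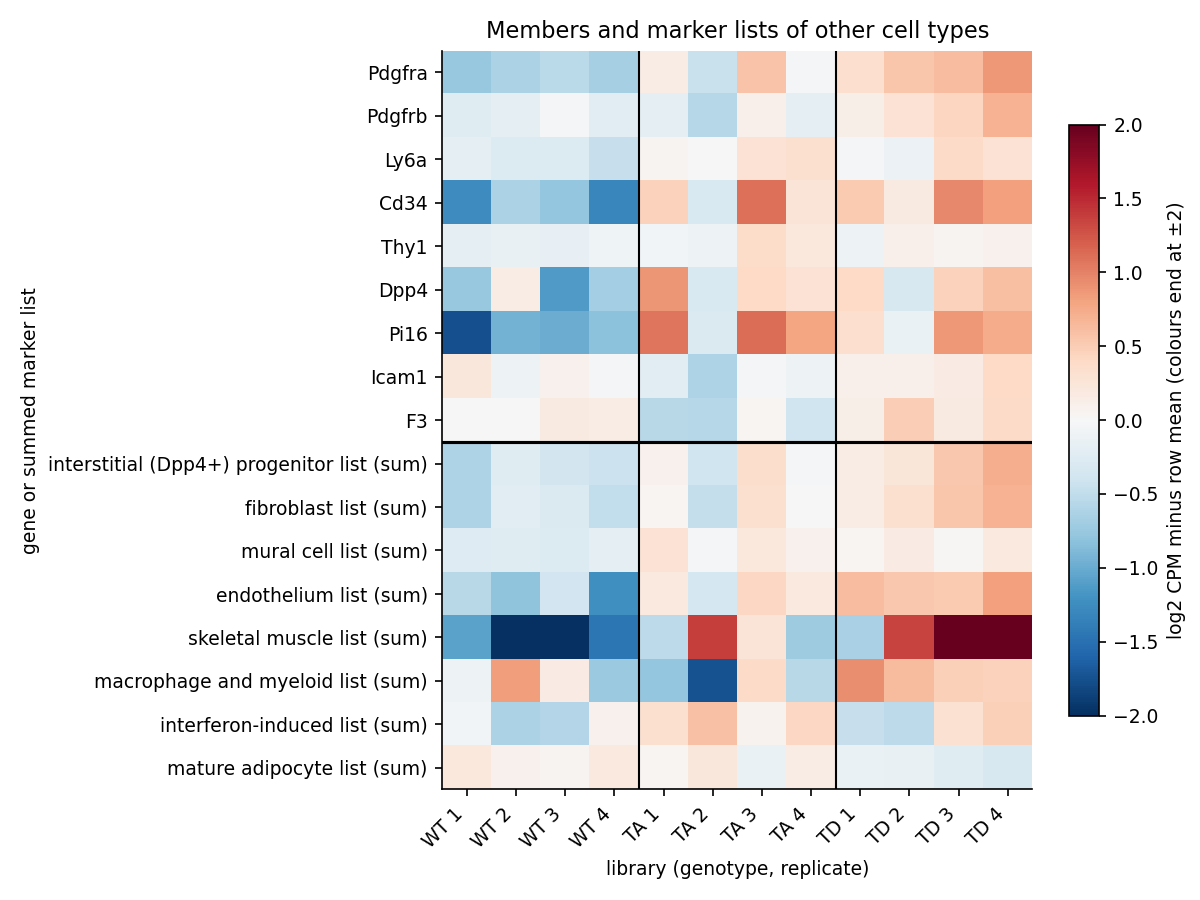
Rows are the 9 tested markers and 8 summed marker lists, columns are the 12 libraries, and colour is the log2 CPM minus the mean of its row, from blue (low) to red (high), with colours ending at -2 and 2. TA replicate 3 and TD replicates 3 and 4 are red for Pdgfra and Cd34 and for the fibroblast and endothelium lists, TA replicate 2 is blue in those rows, and the muscle list has its lowest values in WT and its highest in TD replicates 3 and 4.

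The genes whose log2 level ran closest to that of each member over the 12 libraries are given as a description. For Pdgfra these were Pros1 (r = 0.986), Armcx3 (0.984) and Vcan (0.983), the last encoding the matrix proteoglycan versican. For Cd34 they were Glipr2 (0.989), Prrx2 (0.987) and Antxr1 (0.986). For Pi16 they were Pde4b (0.963), Olfml2b (0.959) and Smad5 (0.945), and for Dpp4 they were Capn5 (0.920), Gm15987 (0.904) and St3gal2 (0.895). Ly6a ran closest to H2-Q6 (0.959), Plac8 (0.952) and Ifitm3 (0.944), of which H2-Q6 and Ifitm3 are of families inducible by interferon, and Thy1 to Itm2a (0.934), Mfap4 (0.879) and H2-M3 (0.871). Pdgfrb ran closest to Birc3 (0.987) and Pcdh1 (0.970), Icam1 to Bdh1 (0.953), Klf4 (0.927) and Spata24 (0.919), and F3 to Rps6kc1 (0.963), Tgif1 (0.941) and Nek6 (0.931). No gene was among the closest of more than 1 member. The libraries share depth and genotype, so a likeness of this kind is not a relation between genes.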

How the data were processed

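RNA of 12 libraries, 4 per genotype, was analysed. Genotypes and replicate numbers came from the sample labels. The authors deposited read counts per gene without normalization, and the counts deposited library by library were equal to those of the joint table in 12 of 12 libraries. The submitters' processing notes name bcl2fastq 2.17.1.14, cutadapt 1.9.1, HISAT2 2.0.1, HTSeq 0.6.1 and GRCm38, and the strand setting is not given in the sources used here, so reads of antisense genes could not be told apart. Gene positions and exon lengths came from GENCODE M21, which held 99.8% of the identifiers.

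In edgeR 4.0.16 (R 4.3.3, limma 3.58.1), filterByExpr with min.count 10 and min.total.count 15 kept 15117 genes, and libraries were scaled by TMM (factors 0.957 to 1.04). A single quasi-likelihood fit of all 12 libraries gave the 3 pairwise comparisons of genotypes, tested two-sided, with Benjamini-Hochberg adjustment over all genes tested. Log2 CPM used a prior count of 2. On simulated data the same steps called 45.5% of genes changed by a log2 fold change of 0.5 and 87.9% of those changed by 1, in TD against WT over 14898 genes. The simulation gave every gene the same spread (biological coefficient of variation 12.9%), so these rates do not carry over to genes whose spread differs. For ratios between members, 4 libraries were set against 4 by exact permutation, two-sided. Alternatives were DESeq2 1.42.0, other scalings, no filter, 8 libraries only, a replicate block and leaving out each library.

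The members and the 18 gene lists set beside them were chosen with earlier results of these data known. From each list the text names, per comparison, the called gene with the largest rise and the one with the largest fall, and the gene with the highest level per kilobase. Ebf2, F7 and the other list genes named outside this rule were chosen after their values were seen, and so were the ratios. A gene that these rules name is not reported here. Depth and the counts per library set the precision of each level, and limits at 0 counts cover counting error only.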

Additional observations from a re-analysis of the deposited data

Results flagged for a closer look

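The estimated differences of Pdgfrb, Icam1 and F3 from WT were opposite in sign in TD and TA, and the difference between the mutants passed the test for each. TD exceeded TA by a log2 fold change of 0.59 for Pdgfrb (edgeR adjusted p = 0.00537, 4 of 4 TD libraries above all TA libraries), of 0.42 for Icam1 (edgeR adjusted p = 0.0218, 4 of 4) and of 0.65 for F3 (edgeR adjusted p = 0.00200, 4 of 4). For Pdgfrb the difference of TA from WT was -0.025 (edgeR adjusted p = 0.934), so its sign there is not fixed. In TD against WT the interval spanned 0 for Icam1 (0.15, -0.099 to 0.39, edgeR adjusted p = 0.372) and for F3 (0.22, -0.035 to 0.47, edgeR adjusted p = 0.187). Opposite changes from WT were therefore not established for any of these genes. No library stood apart from the other 3 of its genotype by Dixon's 95% limit in the 27 sets of 4 libraries looked at, where chance alone would mark about 1 in 20.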

How the results depend on the processing

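Of 162 member values recomputed with another tool, scaling, filter, set of libraries or the replicate block, 152 kept their direction and their side of the threshold, and of 324 with 1 library left out, 294 did. The number of members higher was 5 to 7 in TD against WT, 4 to 5 in TA against WT and 3 to 4 in TD against TA over the first kind, and 5 to 6, 4 to 6 and 2 to 4 with 1 library left out, the lowest in TD against TA without TA replicate 2 or TD replicate 4. In TA against WT 2 members were lower with no filter on low counts (F3 and Icam1, the latter at -0.28, edgeR adjusted p = 0.0454) and 0 to 1 with 1 library left out. With library totals alone, TD against TA was 0.050 for Ly6a and 0.024 for Dpp4, in place of -0.023 and -0.053. With 1 library left out, the sign turned for Pdgfrb in TA against WT (-0.14 to 0.078) and, in TD against TA, for Ly6a (-0.11 to 0.054), Dpp4 (-0.21 to 0.17), Thy1 (-0.14 to 0.012) and the log2 ratio of Pdgfra to Pdgfrb (-0.11 to 0.0046), none of them called. Dpp4 was called in TD against WT with DESeq2 (0.84, adjusted p = 0.0426), library totals (0.91), no filter (0.84) and 8 libraries (0.85), and in TA against WT with no filter (0.88, edgeR adjusted p = 0.0246), and Thy1 in TD against WT with 8 libraries (0.18, edgeR adjusted p = 0.0483). With no filter, the edgeR adjusted p of Cd34 in TD against WT moved from 0.000271 to 1.85e-53, while its log2 fold change moved only from 1.61 to 1.60. Calls made with no filter are therefore weak evidence. The causes were not tested.

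With the replicate number as a replicate block, the members higher stayed at 5, 4 and 4 in TD against WT, TA against WT and TD against TA. Libraries with the same number did not deviate together (correlations of -0.237 to 0.196), so the number was not taken as a pairing. Over all genes, called genes were 51.5% higher in TD against WT and 43.9% in TD against TA, but 64.6% and 64.7% with library totals alone and, in TD against TA, 54.3% with no filter. In TD against TA 2524 genes were called, and 1422, 1586 and 1432 without TA replicate 2, TD replicate 3 and TD replicate 4.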

Other observations

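Markers of further cell types of the fat depot differed widely in level. As a reference for the counts below, 15.1% of all tested genes were higher in TD against WT and 7.33% in TD against TA. T cell genes were near 0, with a summed level of 7 genes of at most 0.835 CPM in any library and no read of Cd3d or Cd3g. The highest per kilobase was Lck, at 0.0799 CPM per kilobase. Of 3 testable mesothelial genes, 1 (Krt8) was higher in TD against WT (0 without TD replicate 2 or TD replicate 4, and 2 without WT replicate 4 or TA replicate 1, 2 or 3), with sums of 1.82 to 3.82 CPM in WT, 1.11 to 3.28 in TA and 3.24 to 5.80 in TD, and Krt19 was the most abundant at 0.879 CPM per kilobase. Krt8 was low throughout (0.149 ± 0.234, 0.280 ± 0.447 and 0.916 ± 0.508 CPM in WT, TA and TD). It passed the filter on low counts through mutant libraries alone, so its rise is partly set by that filter. Of 6 Schwann cell genes, 2 were higher in TD against WT (1 without WT replicate 1 or TD replicate 4), led by the nerve growth factor receptor Ngfr (15.6 ± 6.10 CPM in WT, 23.0 ± 10.7 in TA and 35.7 ± 15.1 in TD, log2 fold change 1.19, edgeR adjusted p = 0.0134), which was also the most abundant. Mbp, the myelin basic protein, was higher in TD than in TA (0.51, edgeR adjusted p = 0.0188), a call lost without TA replicate 1, TA replicate 2 or TD replicate 4. Of 10 cell cycle genes, 2 were higher in TD against WT (1 without WT replicate 1, WT replicate 4 or TD replicate 4, and 5 without WT replicate 2), led by the cyclin Ccna2 (4.12 ± 0.775, 5.43 ± 1.38 and 8.56 ± 2.0 CPM in WT, TA and TD, 1.05, edgeR adjusted p = 0.00144). Ccna2 was also higher in TD than in TA (0.65, edgeR adjusted p = 0.0370), a call lost without any 1 of the TA replicates 1, 2 and 4 or TD replicates 1 and 4, and Top2a was the most abundant at 2.23 CPM per kilobase. The myeloid genes were abundant, with the lysozyme gene Lyz2 at 261 CPM per kilobase, above every member except Ly6a. Of 12 testable, 1 was higher in TD against WT, the complement gene C1qa (0.85, edgeR adjusted p = 0.0384), and the count changed with single libraries (5 without WT replicate 2, 3 without TA replicate 2 or 3, and 0 without WT replicate 1, 3 or 4 or TD replicate 1, 2 or 3) and 3 in TD against TA, led by the mannose receptor Mrc1 (1.68, edgeR adjusted p = 0.0244), a count that was 0 without any 1 of TA replicates 1, 2 and 4 or TD replicate 1, 1 without TD replicate 2, 3 or 4, and 6, 8 and 11 when WT replicate 4, WT replicate 2 or TA replicate 3 was left out.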
